A study of Mus musculus with 4 samples.

Results

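DEAD and DEAH box RNA helicases were described in sorted mouse LSK cells, the marrow fraction without lineage markers and with Sca-1 and c-Kit that holds blood stem and early progenitor cells. Members were the probes whose deposited gene symbol starts with Ddx or Dhx and a digit, with Ddx3y and 2 further symbols left out. This gave 71 of 55677 probes for 51 genes, 36 with the prefix Ddx and 15 with the prefix Dhx. RNA was hybridised to 4 Agilent arrays in 1 colour (Cy3), 2 carrying the Ezh1 knockout label (Ezh1 is a histone H3 methyltransferase) and 2 the control label, all from mice of the C57Bl/6J strain. The genotype of the controls, the allele and the deleted part of Ezh1, and the number and age of the mice are not stated in the labels. The family was proposed with the knockout-control contrast of these arrays in view, so its differences are given as a description, without a test.

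RNA helicases of these families use ATP to unwind short RNA duplexes or to strip proteins from RNA. DEAD box and DEAH box are names for a conserved stretch of the ATP-binding core, spelled in amino acid letters. They act at nearly every step of the life of an RNA: rRNA processing in the nucleolus, remodelling of the spliceosome, mRNA export, translation initiation and mRNA decay. In blood, inherited and acquired changes of DDX41 are known from human myeloid neoplasms. Ddx26b is a member by its name alone: RefSeq now calls it Ints6l, a relative of a subunit of the Integrator complex.

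Promoters of 4 members are shown because these genes stand at the ends of the distribution of kept genes: Ddx18 and Dhx37 were most above the controls, and Ddx10 and Dhx15 stood next to Ddx26b at the lower end. Each is the 250 bases before the annotated start, read 5′ to 3′ on the gene's strand (RefSeq, GRCm38.p6). Capitals mark 3 motifs on either strand, the GC box GGGCGG, the CCAAT box CCAAT and the ETS motif CCGGAAG, none overlapping another. Ddx18 lies at chr1:121567981-121568230, Dhx37 at chr5:125434049-125434298, Ddx10 at chr9:53248113-53248362 and Dhx15 at chr5:52190547-52190796, all on the minus strand.
Ddx18: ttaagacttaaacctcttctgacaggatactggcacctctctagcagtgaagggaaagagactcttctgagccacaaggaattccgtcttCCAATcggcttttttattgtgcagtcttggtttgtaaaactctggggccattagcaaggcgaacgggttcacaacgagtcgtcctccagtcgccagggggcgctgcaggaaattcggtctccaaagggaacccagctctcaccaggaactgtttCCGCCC
Dhx37: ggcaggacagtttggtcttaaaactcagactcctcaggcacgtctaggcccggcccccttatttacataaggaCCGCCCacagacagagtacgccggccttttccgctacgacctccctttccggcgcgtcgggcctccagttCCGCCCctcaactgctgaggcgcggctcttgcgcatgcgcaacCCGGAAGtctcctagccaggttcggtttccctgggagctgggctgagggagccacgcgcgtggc
Ddx10: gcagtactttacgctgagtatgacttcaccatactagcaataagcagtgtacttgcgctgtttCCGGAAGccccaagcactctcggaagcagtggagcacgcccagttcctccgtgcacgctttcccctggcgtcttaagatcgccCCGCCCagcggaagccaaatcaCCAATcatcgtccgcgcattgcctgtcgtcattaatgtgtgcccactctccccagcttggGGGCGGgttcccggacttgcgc
Dhx15: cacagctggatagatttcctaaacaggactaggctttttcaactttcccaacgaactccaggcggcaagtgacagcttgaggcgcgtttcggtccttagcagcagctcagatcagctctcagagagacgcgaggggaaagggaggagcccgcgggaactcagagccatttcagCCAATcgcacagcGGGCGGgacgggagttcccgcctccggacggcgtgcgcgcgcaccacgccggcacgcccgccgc

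Of 50 kept member genes 45 had a window in the RefSeq table, 56 windows in all, and 10 motifs were searched on both strands. The ETS motif CCGGAAG stood in 17 of 56 helicase windows (30.4%), against 6.91% of all 32851 windows. The GC box GGGCGG stood in 57.1% of helicase windows and 32.7% of all windows, and the TATA box TATAAA in 5.36% and 12.4%. Of the promoters shown, those of Dhx37 and Ddx10 hold CCGGAAG. The other motifs, with their share of helicase windows and of all windows, were CCAAT (42.9% and 33.8%), the E-box CACGTG (10.7% and 6.02%), CACGCG (17.9% and 7.62%) and the cAMP element TGACGTCA (8.93% and 1.55%). The NRF1 motif stood in 5.36% and 0.782%, the YY1 motif GCCATNTTG in 3.57% and 1.33%, and the ZBTB33 motif in 0% and 0.39%. Motifs and promoters were chosen after values were seen, and a match is a description of these letters, not of binding. All windows cover every gene of the RefSeq table, kept or not, so the shares do not compare helicases with other kept genes. No test set the shares apart.

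Signals were divided by each array's 75th percentile, which was 1095 and 1690 on the knockout arrays, against 1594 and 1531 on the controls. A scaled intensity of 1 is therefore the 75th percentile of that array. A probe was kept when it was above the 20th percentile of the array on both arrays of at least 1 group, which kept 70 of the 71 member probes and 50 of the 51 genes. Ddx60, an interferon-induced gene, was left out by this filter: its scaled intensities were 0.0326 and 0.0321 on the knockout arrays, against 0.0175 and 0.0143 on the controls. Ezh1 itself did not settle the labels. Its brightest probe read 1.89 and 2.21 on the knockout arrays, against 1.67 and 1.71 on the controls (log2 difference 0.27). A dimmer probe read 0.192 and 0.0537 on the knockout arrays, against 0.259 and 0.197 on the controls (-1.15), and the remaining probes, at 0.13 and -0.09, overlapped. A probe outside the deleted part checks nothing, and with that part unknown no probe here could check the genotype. Knockout arrays therefore means the arrays labelled so, and each direction below rests on those labels. The LSK markers Kit, Cd34 and Flt3 were kept with scaled intensities of at least 3.94 on every array, and Ly6a, the gene of Sca-1, with at least 1.31. Slamf1, on the same list, was dim, at 0.0724 and 0.0307 on the knockout arrays, against 0.104 and 0.0713 on the controls. Markers of other marrow cells also differed between the groups. Both knockout arrays lay above both controls for 17.5% of all genes. Of 18 neutrophil markers 17 did so (median log2 difference 1.78). Their summed scaled intensity was 381 and 318 on the knockout arrays, against 298 and 318 on the controls. Itgam, the brightest of them and the only one lower, carried most of that sum; without it the sums were 182 and 166 on the knockout arrays, against 82.0 and 94.3 on the controls. All 18 were detected on both knockout arrays, and 18 and 17 on the controls. Of 11 kept B-lineage markers 9 were above on both arrays (median 1.52; sums of 41.9 and 45.9 on the knockout arrays, against 30.3 and 37.6 on the controls), with 12 and 11 of 12 detected on the knockout arrays, against 12 and 10 on the controls. Without Cd22, the brightest, the B-lineage sums were 9.84 and 8.34 on the knockout arrays, against 5.59 and 5.30 on the controls. Of 11 kept T and NK markers 7 were above (median 0.47; sums of 26.9 and 26.4, against 19.8 and 18.4), with 11 of 12 detected on each knockout array and 11 and 10 on the controls. Of 8 kept monocyte and macrophage markers 3 were above (median 0.52; sums of 48.0 and 39.3 on the knockout arrays, against 30.8 and 26.2 on the controls), all 8 detected on every array. The 10 erythroid markers had a median of -0.16 (sums of 152 and 112 on the knockout arrays, against 164 and 110 on the controls) and the 6 megakaryocyte markers one of -0.06 (9.98 and 10.6 on the knockout arrays, against 14.2 and 8.92 on the controls), all detected on every array. Of 12 LSK markers 10 were lower (median -0.22, sums of 62.2 and 48.6 on the knockout arrays, against 71.7 and 58.1 on the controls). Groups were apart below for 5 (41.7%, against 21% of all genes) and above for 1 (8.33%, against 17.5%). That 1 was Ly6a, with 3.38 and 1.64 on the knockout arrays, against 1.31 and 1.62 on the controls (log2 difference 0.69). Of the 12 LSK markers, 12 and 11 were detected on the knockout arrays and 12 on each control. Slamf1 was missed on knockout replicate 2. Mmp9, Ms4a1, Cd8b1 and Cd5 were not detected on every control array and were kept through the knockout arrays alone. Their place above the controls was thus favoured by the filter, and the counts of markers above include them. No marker was past the adjusted threshold. The part of these cells in the helicase values was not tested. In sorted populations, fewer cells of a type and less RNA per cell cannot be told apart.

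The comparison of the design asks which transcripts differ in LSK cells when Ezh1 is knocked out. Most helicase genes were lower on the knockout arrays: 37 of 50 had a log2 difference below 0, against 47.9% of all 19287 genes. The median log2 difference was -0.24 (1.18-fold lower; quartiles -0.51 and 0.00), against 0.03 for all genes. Both knockout arrays lay below both controls for 23 of 50 genes (46%), where the background over all genes was 21%. Both lay above for 4 genes (8%), where the background was 17.5%. Bright probes were lower as a whole. Genes with a mean signal above the 75th percentile had a median of -0.09, with 59.7% lower. Their groups were apart below for 25.8% and above for 16.5%. The 30 helicase genes in that range had a median of -0.23, with 24 lower. Their groups were apart below for 43.3% and above for 6.67%. This range was chosen after the values were seen. Role and pathway lists below are set against genes of any signal unless stated.

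No member was past the threshold. In the limma fit over 43759 probes the count with an adjusted p under 0.05 was 0 (background 0%), the lowest adjusted p being 0.780. At an unadjusted p under 0.05 there were 3 of 70 member probes, those of Ddx10 and both of Ddx18, where the background was 5.74%. In the authors' deposited table, 6 of 71 member probes had a p-value under 0.05, against 5.88% of all probes. Those 6 were single probes of Ddx59, Ddx60, Dhx35, Ddx10, Dhx16 and Dhx8, lower in the authors' deposited table except Ddx60.

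**Figure D1:**
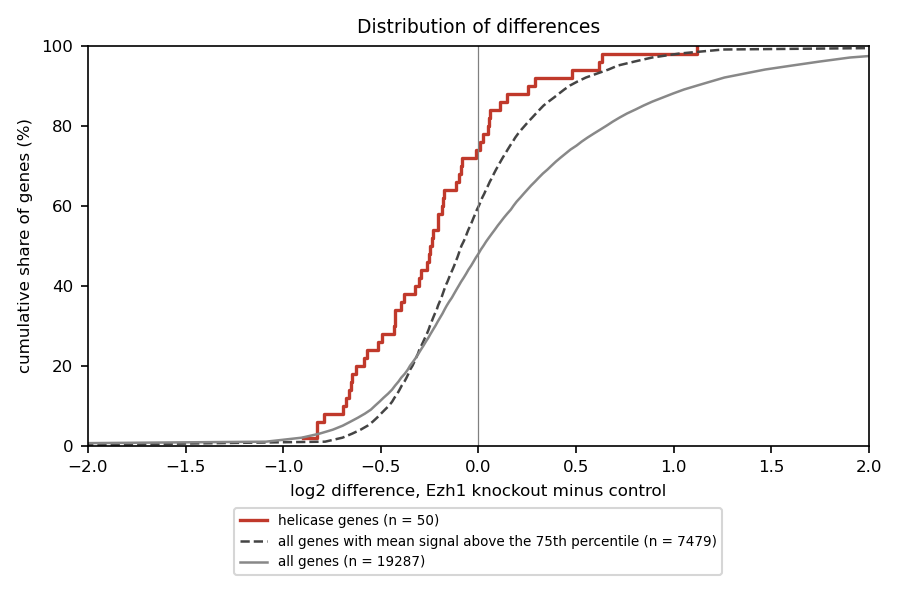
Cumulative share of genes (%) against the log2 difference, Ezh1 knockout minus control, for 50 helicase genes (red), 7479 genes with a mean signal above the 75th percentile (dashed) and all 19287 genes (grey); the axis is drawn from -2 to 2. The helicase curve lies left of both others over most of its range and crosses 0 at 74%, against 59.7% and 47.9%.

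The size of the difference depended on which control array was used. The median log2 signal of the 50 genes was 0.41 and 0.23 on the knockout arrays, against 0.82 and 0.35 on the controls. Control replicate 1 read higher than control replicate 2 for 45 of 50 genes (90%), against 52.7% of all genes and 75.7% of bright genes. Knockout replicate 1 also read higher than knockout replicate 2, for 35 of 50 genes. The median log2 gap, replicate 2 minus replicate 1, was -0.155 in knockouts and -0.303 in controls. Bright genes had gaps of -0.158 and -0.216, and all genes 0.005 and -0.041. Against control replicate 1, the helicase median was -0.40 for knockout replicate 1 and -0.48 for knockout replicate 2, with 41 and 44 genes lower. All genes were at 0.03 and -0.02 in these pairings, with 48% and 50.9% lower. Against control replicate 2, the helicase median was -0.06 and -0.15, with 30 and 31 of 50 lower. There all genes were at -0.05 and 0.04, with 53.7% and 47.2% lower, so knockout replicate 1 lay near the background. These 4 pairings share arrays and are not independent. Without control replicate 1 the median of the family was -0.08, against -0.03 for all genes, and 32 of 50 genes were lower, against 53% of all genes. The difference between the group means was larger than the gap between the arrays within either group for 17 of 50 genes (34%), against 26.7% of all genes and 29.3% of bright genes.

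**Figure D2:**
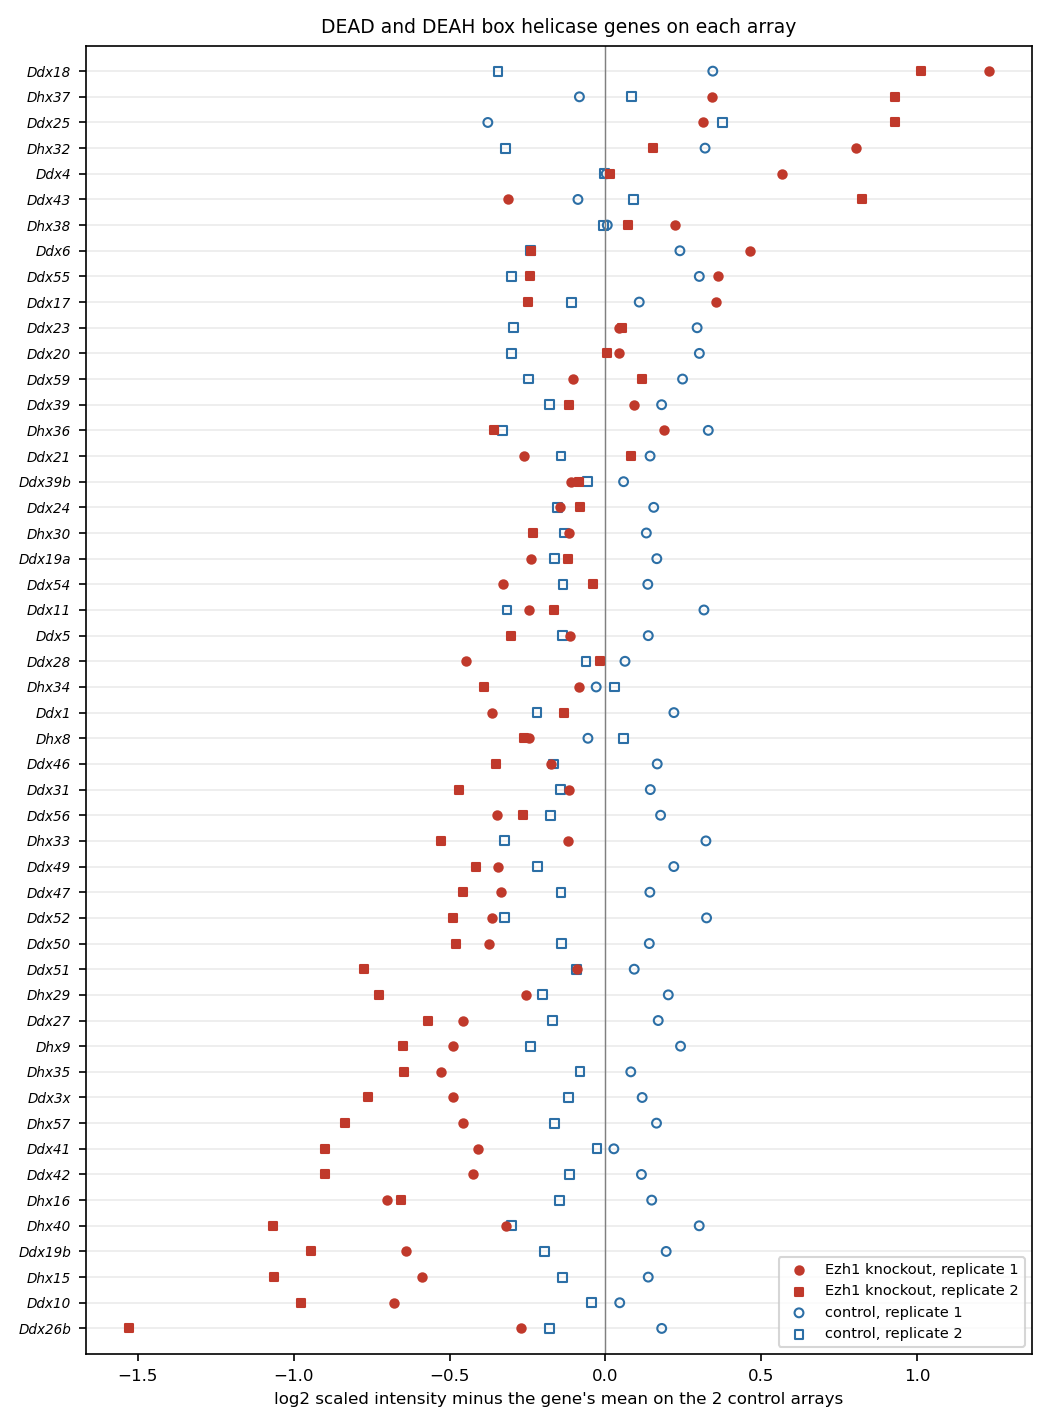
Log2 scaled intensity of the 50 helicase genes on each array, minus the gene's mean on the 2 control arrays; filled red marks are the Ezh1 knockout arrays and open blue marks the controls, with circles for replicate 1 and squares for replicate 2. Genes run from Ddx18 at the top (log2 difference 1.12) to Ddx26b at the bottom (-0.90), and the control circle lies right of the control square in 45 rows.

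Helicases of ribosome biogenesis, which act on pre-rRNA in the nucleolus, held both the highest member and one of the lowest. Of 16 genes 13 were lower, with a median log2 difference of -0.31. Both knockout arrays lay below both controls for 7 (43.8%, against 21% of all genes) and above for 2 (12.5%, against 17.5%). Without control replicate 1 the median was -0.12, with 11 lower. Ddx18, whose yeast counterpart Has1 serves both ribosomal subunits, had scaled intensities of 4.20 and 3.62 on the knockout arrays, against 2.28 and 1.41 on the controls. Both knockout arrays stood above both controls, by 2.18-fold (log2 difference 1.12, 95% interval 0.10 to 2.15). It was the only kept gene past 2-fold; Ddx60, left out by the filter on dim probes, stood 2.04-fold higher, with detection on only 2 arrays. The second Ddx18 probe gave a log2 difference of 1.39, and over the alternatives the brighter probe ranged from 0.78 to 1.47.

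Dhx37, which acts on the U3 snoRNA in maturation of the small subunit, stood at 1.45 and 2.17 on the knockout arrays, against 1.08 and 1.21 on the controls (log2 difference 0.64, interval -0.31 to 1.58). The knockout arrays differed from each other by more than the lower of them differed from the controls. Ddx10, a nucleolar helicase known from NUP98 fusions in human leukaemia, had 0.321 and 0.261 on the knockout arrays, against 0.530 and 0.498 on the controls. Mean log2 signals were -1.79 ± 0.21 in knockout and -0.96 ± 0.06 in control cells (SD over 2 arrays). The controls lay close together and the groups apart, at 1.78-fold lower (log2 difference -0.83, interval -1.60 to -0.06), and the log2 difference stayed between -1.05 and -0.68 over the alternatives. Ddx21, which links rRNA transcription to processing, had 3.98 and 5.04 on the knockout arrays, against 5.26 and 4.31 on the controls, so the groups overlapped (-0.09). Its second probe gave -0.66. The other lower genes with groups apart were Ddx27, Ddx50, Ddx52, Ddx47, Ddx49 and Ddx56, between -0.51 and -0.31.

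Helicases of the spliceosome and of snRNP assembly were lower for 9 of 13 genes, with a median of -0.25, and -0.10 without control replicate 1. Both knockout arrays lay below both controls for 8 of 13 (61.5%, against 21% of all genes) and above for 1 (7.69%, against 17.5%). Dhx15, the counterpart of yeast Prp43, takes spent spliceosomes apart and also serves ribosome maturation. It had scaled intensities of 1.14 and 0.824 on the knockout arrays, against 1.89 and 1.56 on the controls, 1.77-fold lower (log2 difference -0.83, interval -1.73 to 0.07). The groups did not overlap. Dhx16, the counterpart of yeast Prp2, which activates the spliceosome before its first reaction, had 1.97 and 2.04 on the knockout arrays, against 3.56 and 2.90 on the controls. Here the knockout arrays were nearly equal, and the log2 difference was -0.68 (interval -1.44 to 0.09).

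Ddx42, a helicase found with the SF3b complex, had 2.67 and 1.92 on the knockout arrays, against 3.88 and 3.31 on the controls (-0.66). Ddx41, found in catalytic spliceosomes, had 1.02 and 0.727 on the knockout arrays, against 1.38 and 1.33 on the controls. It was 1.57-fold lower (log2 difference -0.65, interval -1.52 to 0.21), with knockout replicate 2 the lowest array in both genes. Dhx38, the counterpart of Prp16, which acts before the second reaction, was on the other side: 0.418 and 0.377 on the knockout arrays, against 0.360 and 0.357 on the controls (0.15, but -0.07 under median centring).

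Ddx5, which also acts in transcription, had 17.3 and 15.2 on the knockout arrays, against 20.6 and 17.0 on the controls (log2 difference -0.21), with 1 of its 3 probes at 0.07. The log2 difference was -0.49 after quantile normalization and -0.43 under median centring. Its paralogue Ddx17 had 17.0 and 11.2 on the knockout arrays, against 14.3 and 12.3 on the controls (0.05). The knockout arrays of Ddx17 lay on both sides of the controls, and its dimmer probe was at -0.25. Ddx39b, which serves both splicing and export of mRNA, had 13.1 and 13.3 on the knockout arrays, against 14.7 and 13.6 on the controls (-0.10, but -0.34 after quantile normalization and -0.32 under median centring). Ddx20, the Gemin3 protein of the SMN complex that builds snRNPs, had 0.436 and 0.425 on the knockout arrays, against 0.522 and 0.343 on the controls (0.02), within the gap between the controls. The dimmer Ddx20 probe was at -0.23. Transcripts of the close pairs Ddx5 and Ddx17, Ddx19a and Ddx19b, Ddx39 and Ddx39b, and Ddx3x and Ddx3y are similar enough that a probe may bind both, so their values are uncertain as separate genes.

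**Figure D3:**
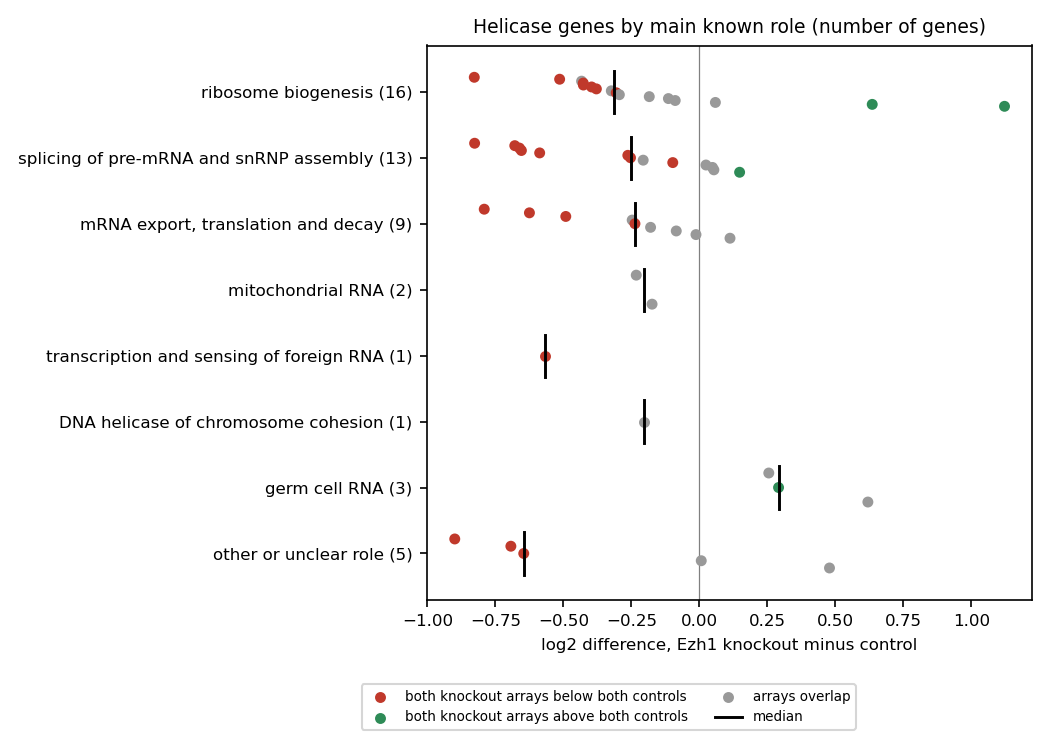
Log2 difference, Ezh1 knockout minus control, of the 50 helicase genes grouped by main known role, 1 point per gene and a black bar at the median; red points have both knockout arrays below both controls, green points both above, grey points overlap. Medians lie at -0.31 for ribosome biogenesis, -0.25 for splicing and -0.24 for export, translation and decay, and at 0.29 for the 3 germ cell helicases.

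Among helicases of mRNA export, translation and decay, 8 of 9 genes were lower (median -0.24). Without control replicate 1 the median was -0.03 and 6 were lower. Ddx19b, a relative of the export helicase Dbp5 of the nuclear pore, had 0.791 and 0.640 on the knockout arrays, against 1.41 and 1.08 on the controls, 1.73-fold lower (log2 difference -0.79, interval -1.66 to 0.08). Its neighbour Ddx19a had 7.24 and 7.87 on the knockout arrays, against 9.58 and 7.63 on the controls (-0.18), and there the groups overlapped. Ddx3x, an X-linked helicase of translation initiation, had 4.74 and 3.92 on the knockout arrays, against 7.22 and 6.13 on the controls. Its 3 probes were lower by differing amounts, with log2 differences of -0.63, -0.38 and -0.30, the groups being apart for the brightest.

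Ddx6, which holds mRNAs in a silent state in P-bodies and feeds them to decay, had 5.17 and 3.17 on the knockout arrays, against 4.42 and 3.18 on the controls (0.11). Dhx36, which unwinds G-quadruplexes, had 1.77 and 1.21 on the knockout arrays, against 1.95 and 1.23 on the controls (-0.09). In both genes replicate 1 read above replicate 2 within each group by more than the groups differed. Ddx1, a subunit of the tRNA ligase complex, had 2.66 and 3.13 on the knockout arrays, against 3.99 and 2.94 on the controls (-0.25), with control replicate 1 alone above the rest.

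Dhx9, RNA helicase A, a partner of transcription and a binder of long duplex RNA, had 4.04 and 3.62 on the knockout arrays, against 6.71 and 4.80 on the controls. The groups did not overlap, at 1.48-fold lower (log2 difference -0.57, interval -1.44 to 0.31). The mitochondrial helicases Ddx28 and Dhx30 were at -0.23 and -0.17, with overlapping groups. A dimmer probe of Dhx30 was at -0.67, with both knockout arrays below both controls. Ddx11, a DNA helicase of sister chromatid cohesion, was at -0.21, and at 0.11 without control replicate 1. Among genes with no clear role, Ddx26b had 1.04 and 0.435 on the knockout arrays, against 1.42 and 1.11 on the controls (-0.90, interval -2.42 to 0.62). Its knockout replicate 1 was close to the controls, and without knockout replicate 2 the log2 difference was -0.27. Dhx40 had 0.560 and 0.334 on the knockout arrays, against 0.861 and 0.567 on the controls (-0.69), with knockout replicate 1 just under the lower control. Its dimmer probe was at 0.27.

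The 3 germ cell helicases all had a log2 difference above 0, at low or uneven signal, where 47.9% of all genes were below 0. Ddx4, the Vasa protein of germ cells and the piRNA pathway, had 1.28 and 0.876 on the knockout arrays, against 0.869 and 0.866 on the controls (0.29, interval -0.61 to 1.19). Its knockout replicate 2 lay within 0.02 of the control mean on the log2 scale. Ddx25, a testis helicase, had 0.521 and 0.799 on the knockout arrays, against 0.323 and 0.545 on the controls (0.62), so the groups overlapped. Ddx43, the dimmest kept member, had 0.0292 and 0.0640 on the knockout arrays, against 0.0341 and 0.0385 on the controls. Its knockout arrays lay on both sides of the controls (0.25, interval -1.12 to 1.63).

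Separate probes of a gene check whether a value belongs to the transcript or to the probe. Of 17 members with more than 1 kept probe, all probes were lower for 9, all were higher for Ddx18 and the probes disagreed in direction for 7. Every probe had both knockout arrays below both controls for 2 genes, Ddx26b and Ddx46, and every probe above for Ddx18. The same shares over all genes with more than 1 kept probe are not given, so these counts have no background. Dhx32 disagreed most, with 0.48 for the brighter probe and -0.71 for the dimmer. Ddx59 had 0.01 and -0.63, and Dhx34 had -0.24 and 0.38.

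**Figure D4:**
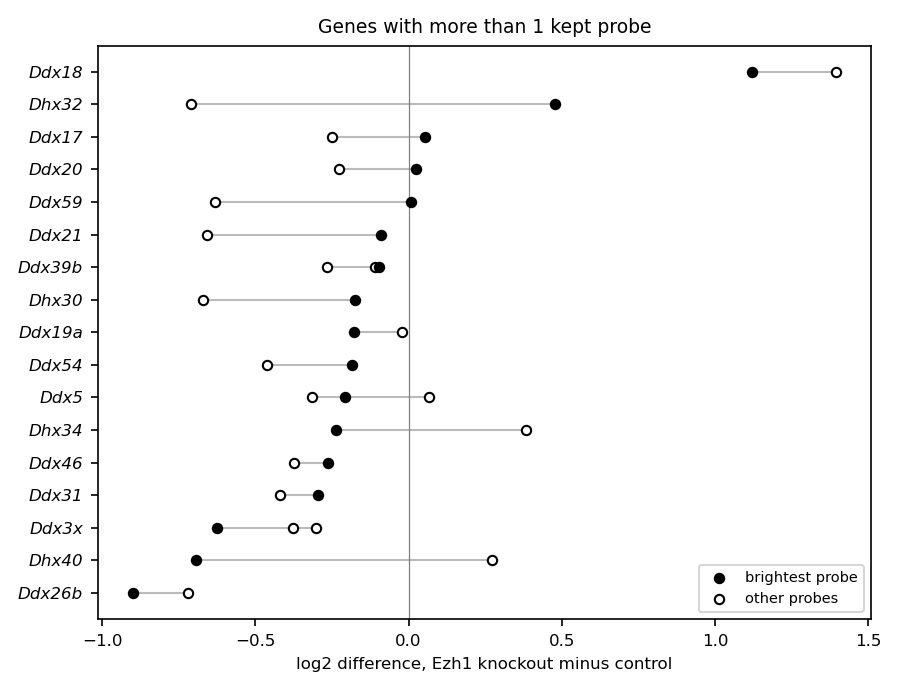
Log2 difference, Ezh1 knockout minus control, of each probe of the 17 helicase genes with more than 1 kept probe; filled points are the brightest probe, which stands for the gene, and open points the others. Both Ddx18 probes lie right of 1, while the lines of 7 genes cross 0.

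Other genes of the same pathways were read from lists written for this description. Of 21 genes listed as RNA helicases without a Ddx or Dhx symbol, 19 were lower (90.5%, against 47.9% of all genes). The median of the list was -0.19, against 0.03 for all genes. The list and its counts include Zcchc4 (-0.09) and Fancm (-0.28, groups apart below), which are not RNA helicases. Groups were apart below for 7 (33.3%, against 21% of all genes) and above for 0 (against 17.5%). Those with the largest differences were Aqr, a helicase of the intron-binding complex (0.322 and 0.318 on the knockout arrays, against 0.628 and 0.555 on the controls, log2 difference -0.88), and Skiv2l, which feeds the cytoplasmic exosome (-0.57). Dicer1, which cuts microRNA precursors, was at -0.52 and Upf1, the helicase of nonsense-mediated decay, at -0.38. Eif4a1, Eif4a2 and Eif4a3, which are DEAD box proteins by sequence though not by symbol, were at -0.06, -0.19 and -0.06 with overlapping groups.

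Of 32 cofactors and partners 25 were lower (78.1%, against 47.9% of all genes), with a median of -0.20. Groups were apart below for 9 (28.1%, against 21% of all genes) and above for 2 (6.25%, against 17.5%). Many of these genes are bright. Among all bright genes 59.7% were lower, with groups apart below for 25.8% and above for 16.5%. Thoc2, of the export complex that works with Ddx39b, was at -0.73, and Gemin6 and Gemin2, which sit with Ddx20 in the SMN complex, at -0.66 and -0.63. Other members of that complex were Gemin5 at -0.31, Gemin4 at -0.20 and Smn1 at -0.10, with overlapping groups, and Gemin7 at 0.29, with both knockout arrays above both controls. Lsm14a, a partner of Ddx6 in P-bodies, was on the other side, with 27.3 and 40.6 on the knockout arrays, against 16.4 and 25.4 on the controls (0.71). No gene of either list was past the adjusted threshold. Medians of these lists lay near that of the Ddx and Dhx genes, and no test set them apart. Values of these lists without control replicate 1 are not given, so their dependence on that array is not shown.

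**Figure D5:**
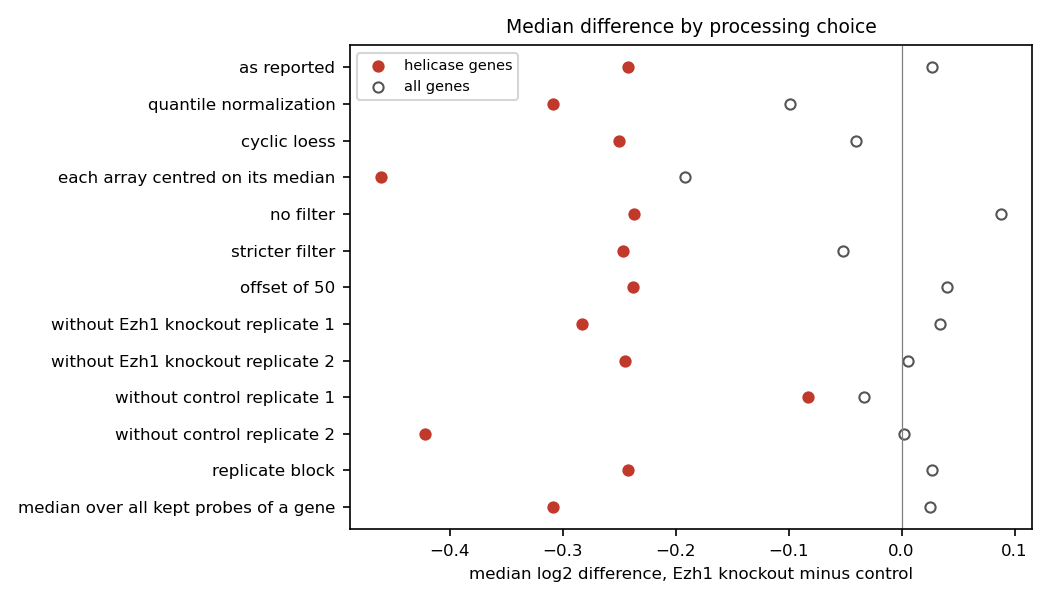
Median log2 difference, Ezh1 knockout minus control, of the helicase genes (red) and of all genes (open) as reported and under 12 other processing choices. The helicase median stays below 0 in each, from -0.46 under median centring to -0.08 without control replicate 1. The replicate block cannot change it in this balanced design.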

How the data were processed

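Total RNA of sorted LSK cells with integrity numbers from 9 to 10.0 was amplified from 0.1 to 5 ng in 16 to 19 cycles and 250 ng were labelled, per the labels' protocols, which do not tie cycle numbers to samples. The authors deposited linear intensity per probe, whose software is Agilent Feature Extraction per the notes on processing from the submitters, without flags or background columns. They also deposited an absolute fold ratio and an unadjusted p-value per probe, per the file headers. The deposited log2 values of the series matrix were used only for a check of probe IDs. Intensity was set to at least 1, converted to log2 and reduced by each array's 75th percentile. The design has 2 arrays per group, which limits precision. Whether replicates came from separate animals is not stated, so spread and p-values may be technical. The contrast was fitted in R 4.3.3 by limma 3.58.1 (linear model with empirical Bayes, 2 residual and 1.78 prior degrees of freedom, two-sided, Benjamini-Hochberg over 43759 kept probes), checked on simulated data. The brightest kept probe stood for a gene. Members, role lists, marker lists and the rule for described genes were chosen with earlier results of these data known. The rule took 12 genes always and up to 8 per direction with the largest difference, groups apart and detection on all 4 arrays, and up to 4 per pathway list. It gave 22 genes; others are named as examples, chosen after their values were seen. Symbols are those of the array design. No scanner background could be corrected, so dim probes are less certain. Alternatives covered scaling, filter, offset, left-out arrays, the replicate block and the probe rule.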

Additional observations from a re-analysis of the deposited data

How the results depend on the processing

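Under 11 alternatives 0 probes were past the limma threshold, with a lowest adjusted p of 0.147 under the stricter filter and unadjusted counts from 888 to 9158, against 2513 as reported. The highest came with the replicate number as a replicate block, which left 0 probes past the threshold (lowest adjusted p 0.206) and the median of the family at -0.24. Deviations of same-numbered arrays correlated at 0.69 over kept probes, but nothing in the labels ties the numbers together, and with 2 pairs this is a hint only. The median stayed below 0 under 12 alternatives, but not all of these could move it. In this balanced design the replicate block cannot change a difference. The filter settings left the differences of the described genes unchanged. Centring arrays on their medians gave a median of the family of -0.46, where all genes were at -0.19. It was -0.31 after quantile normalization, where all genes were at -0.10. Relative to all genes the median was -0.27 as reported and -0.21 after quantile normalization. Median centring moves all genes of an array by the same amount, so its -0.27 was fixed in advance. With an array left out the median of the family ranged from -0.42 (without control replicate 2) to -0.08 (without control replicate 1). The number of lower genes then ranged from 32 to 43. It was 44 with median centring, 40 after quantile normalization and 37 as reported. Genes with groups apart below numbered 14 under median centring (16.6% of all genes), and 23 to 40 with an array left out (23 without control replicate 1, where the share of all genes was 29.9%, and 40 without control replicate 2, where it was 39.5%). Those with groups apart above numbered 2 after quantile normalization (14.3% of all genes), and 5 to 12 with an array left out (8 without Ezh1 knockout replicate 2, with 28.6% of all genes; 12 without control replicate 1, with 29.2%; 5 without control replicate 2, with 40.7%), where fewer arrays make separation easier by construction. Of the 22 described genes 15 kept their sign under every alternative run and 7 did not (Ddx5, Ddx21, Dhx36, Ddx20, Ddx17, Ddx6 and Dhx38). Of the 22, 15 had groups apart, which fixes their sign when 1 array is left out, so these counts are no sign of stability. Role medians without control replicate 1 were added after the data were seen. The alternative with the series matrix's values was not run, because its rows could not be named. The cause of these shifts was not tested.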

Other observations

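The value table of the series matrix does not hold its values under the probe IDs of the intensity table. Of 55677 rows 16370 are filled, and each of these lies within 0.02 (log2, on every array) of some probe of the intensity table after scaling to the 75th percentile. Only 611 lie within 0.02 of the probe with the same ID. Across 1097 genes with at least 2 filled probes, the mean signals of 2 probes of a gene correlated at 0.56 in the intensity table and at -0.005 in the series matrix, across genes, which are not independent replicates. Values read from the series matrix by probe ID would therefore belong mostly to other genes, helicases included.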
